A study of Mus musculus with 12 samples.

Results

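The complement component genes Hc, C3, C1qa, C1qb and Cfd were described in the mouse squamous cell carcinoma NR-S1 and its lung metastases. They were chosen by name, with their ratios on these same arrays already known, so every value below describes them and supports no test. Together they are 5 of 27670 genes or other features, carried by 6 of the 41174 distinct features on the array, since C3 has 2 probes and each of the others has 1. NR-S1 grew in the hind leg of male C3H/HeMsNrs mice and spread to the lung, and primary tumours and metastases came from different mice. The 6 RNAs were a primary tumour given 8 Gy of gamma rays, a primary tumour given 5 Gy of carbon ions, lung metastases of mice whose primary tumour was unirradiated, lung metastases after 8 Gy of gamma rays to the primary tumour, lung metastases after 5 Gy of carbon ions to the primary tumour, and an unirradiated primary tumour. Irradiation was given when the primary tumour measured 7.5 mm, primary tumours were taken 1 week after that size was reached and metastases after 2 weeks, so site and time differ together. The labels state that laser microdissection was used to collect the tumour cells and name 1 clone.

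Each of the 6 conditions was represented by 1 RNA, so no difference has a replicate check and no p-value was computed. Each of the 6 RNA pairs that were hybridised together was measured on 2 two-colour arrays with the dyes exchanged. Values are log2 ratios, given as the mean of both orientations with their SD, which covers error of arrays and dyes and leaves out animals. A gene counted as measured if, in each orientation, 1 or both of the RNAs compared gave a signal well above background, and it rose or fell where its ratio was at least 2-fold, with the same sign, in both orientations. Ratios between metastases, and between a metastasis and a primary tumour given the same radiation, were taken through the unirradiated primary tumour. For these, 2 ratios were subtracted within the same dye orientation, so a dye error shared by both cancels and is missing from their SD. The median SD of all genes was 0.049 in the gamma over the unirradiated metastasis. It was 0.113 in the gamma metastasis over the unirradiated primary, so the SDs of both kinds of ratio are not comparable. Lung metastases and primary tumours are dissected tissue, and more cells of a type and more RNA per cell cannot be told apart here. Between 53.8% and 68.8% of the spots were well above background per channel, and no spot was saturated. Keratins and other keratinocyte markers, 16 in number, were each above background on at least 1 array of every RNA. Their summed intensity was 806700 to 1082000 in the gamma primary, 811800 to 1130000 in the carbon primary, 751200 to 999800 in the unirradiated metastasis, 904600 to 1117000 in the gamma metastasis, 860100 to 1006000 in the carbon metastasis and 727300 to 1015000 in the unirradiated primary.

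Complement is a set of plasma and cell-surface proteins that mark targets for uptake, draw in leukocytes and perforate membranes. C1q, built from the products of C1qa, C1qb and C1qc, recognises bound antibody and other ligands and starts the classical pathway. C3 is the component on which the pathways converge, Cfd (factor D, or adipsin) is the serine protease that activates factor B in the alternative pathway, and Hc encodes C5, whose cleavage releases an anaphylatoxin and begins the membrane attack complex. Liver is the main source of most plasma components, C1q is made largely by macrophages and dendritic cells, and Cfd is known as a product of fat cells. Hc lies on chromosome 2, C3 on chromosome 17, Cfd on chromosome 10, and C1qb, C1qc and C1qa lie next to each other, in that order among protein-coding genes, on chromosome 4.

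The promoter windows of 3 members are shown because Hc differed most between metastasis and primary, C3 was higher in each of the other 5 RNAs than in the unirradiated primary, and C1qb moved together with its neighbours. Each runs from 250 bases before the RefSeq start to 20 bases after it, 5′ to 3′ on the gene's strand, from RefSeq's GRCm38.p6 table. They are chr2:35061393-35061662 (minus strand) for Hc, chr17:57228117-57228386 (minus strand) for C3 and chr4:136886181-136886450 (minus strand) for C1qb. Capitals mark the matches to 4 short motifs searched on both strands.
Hc: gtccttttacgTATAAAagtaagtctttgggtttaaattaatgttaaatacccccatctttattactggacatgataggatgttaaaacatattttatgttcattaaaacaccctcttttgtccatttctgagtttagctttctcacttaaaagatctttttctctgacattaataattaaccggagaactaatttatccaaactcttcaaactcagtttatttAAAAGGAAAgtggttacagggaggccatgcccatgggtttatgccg
C3: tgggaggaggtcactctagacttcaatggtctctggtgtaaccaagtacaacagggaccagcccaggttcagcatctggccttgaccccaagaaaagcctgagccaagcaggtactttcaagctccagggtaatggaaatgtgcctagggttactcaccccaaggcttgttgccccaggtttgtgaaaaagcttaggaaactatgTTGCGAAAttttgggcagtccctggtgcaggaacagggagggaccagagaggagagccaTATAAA
C1qb: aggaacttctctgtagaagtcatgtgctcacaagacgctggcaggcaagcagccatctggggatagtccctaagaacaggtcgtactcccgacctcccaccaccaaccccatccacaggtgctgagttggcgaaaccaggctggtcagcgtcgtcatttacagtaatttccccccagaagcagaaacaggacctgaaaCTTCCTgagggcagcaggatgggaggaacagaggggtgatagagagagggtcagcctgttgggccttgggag
The TATA box letters TATAAA began 239 bases before the start of Hc and 15 bases after that of C3, and 12.9% of 32851 RefSeq windows of this length hold them. The C/EBP-type letters TTGCGNAA matched 45 bases before the start of C3, a match held by 0.7% of windows. The interferon-response core AAANNGAAA matched 26 bases before the start of Hc and occurs in 9.9% of windows. The ETS core AGGAAG matched on the reverse strand 52 bases before the start of C1qb and occurs in 31.8% of windows. The window of Cfd held none of these letters. No 2 of the matches overlapped, and a match is a description of letters, not of a bound site.

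Hc set the lung metastases apart from every primary tumour. Its normalized log2 intensity was 13.94 and 13.95 on the 2 arrays of the unirradiated metastasis, 13.95 and 13.96 in the gamma metastasis and 14.50 on both arrays of the carbon metastasis. In the primaries it was 6.29, 6.31, 6.55 and 7.97 after gamma rays, 6.53, 6.72, 6.73 and 8.01 after carbon ions, and between 6.55 and 7.86, with a median of 7.52, on the 10 arrays of the unirradiated primary. The metastases and the primaries did not overlap, and the highest readings of both irradiated primaries came from the same array. The probe was well above background on 1 of 4 arrays of the gamma primary, on 4 of 4 of the carbon primary and on 10 of 10 of the unirradiated primary. The unirradiated primary read 7.50 to 7.86 on the 6 arrays it shared with a metastasis, against 6.55 to 6.75 on the 4 arrays it shared with an irradiated primary. The ratios to a metastasis therefore rest on the higher of these readings.

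**Figure D1:**
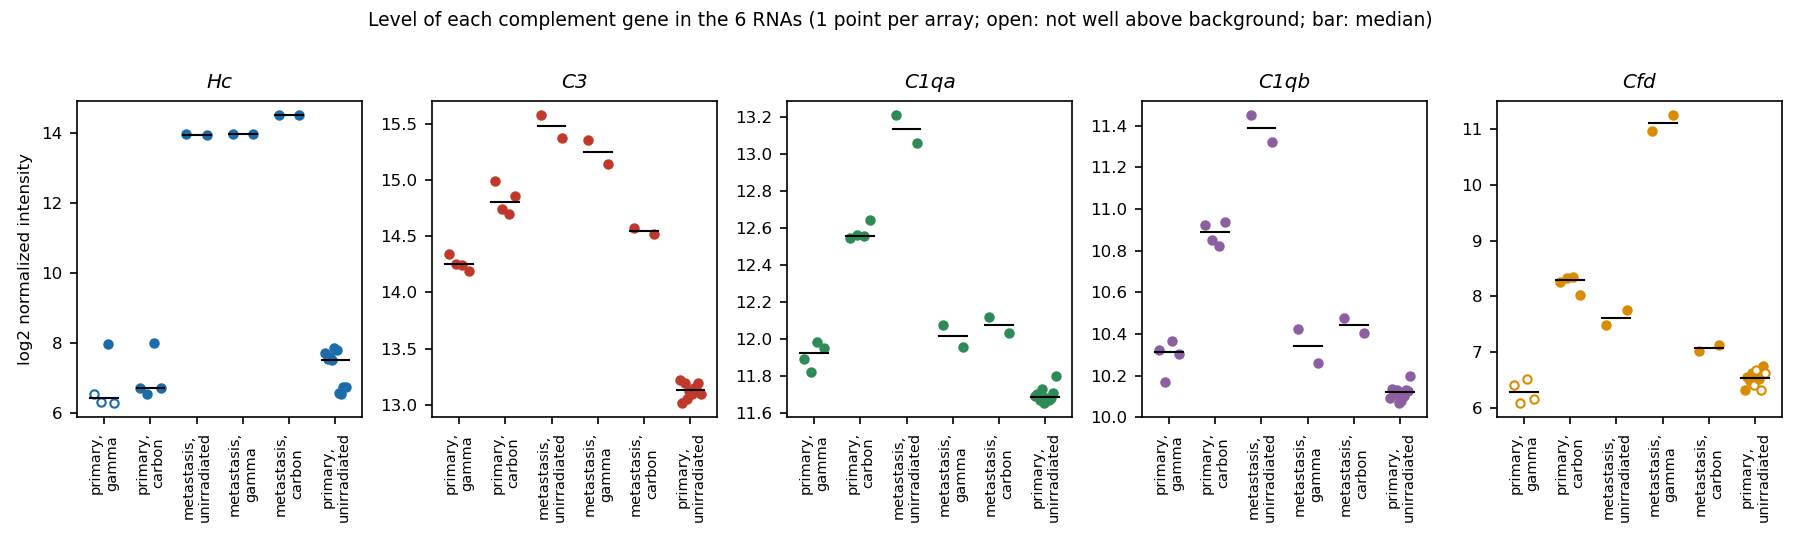
Normalized log2 intensity of the main probe of each gene (vertical axes, each with its own scale) in the 6 RNAs, with 1 point per array, open where the probe was not well above background, and a bar at the median. Hc lies near 14 in the metastases and below 8.1 in the primaries, C3 is lowest in the unirradiated primary, C1qa and C1qb are highest in the unirradiated metastasis and Cfd is highest in the gamma metastasis.

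Relative to the unirradiated primary, Hc rose by 6.31 ± 0.13 in the unirradiated metastasis, a 79.5-fold ratio. It rose by 6.41 ± 0.06 in the gamma metastasis, an 85.1-fold ratio, and by 6.67 ± 0.03 in the carbon metastasis, a 102-fold ratio. Scaling between arrays lowered these ratios to 5.91, 5.41 and 5.73. Against the primary given the same radiation, Hc rose by 6.54 ± 0.21 in the gamma metastasis and by 6.78 ± 0.17 in the carbon metastasis, or by 5.56 and 5.85 with scaling. The gamma primary was above background on none of the arrays that enter its ratio, so the size of that ratio rests on an undetected signal. The ratio was 0.10 ± 0.07 in the gamma over the unirradiated metastasis and 0.35 ± 0.10 in the carbon over the unirradiated metastasis, both under 2-fold. Their sign was not stable, since scaling gave -0.50 and -0.17, and median centring gave -0.06 for gamma. In the primaries themselves the ratio was -0.13 ± 0.15 after gamma rays and -0.11 ± 0.13 after carbon ions, and carbon over gamma was 0.23 ± 0.28, each of them smaller than its SD. Agilent's processed ratio put the gamma primary at -1.04, and the authors' value table gave the same, so the size of the ratio at this low signal depends on the processing.

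Most markers of alveolar and airway epithelium were high in the metastases, as Hc was. Of 17 such genes, 14 rose in the unirradiated metastasis and 15 each in the gamma and carbon metastases, with medians of 3.79, 4.32 and 4.42, and none fell. Of all measured genes, 10.4%, 8.82% and 8.2% rose in these metastases. In the primaries 1 of 7 measured rose after gamma rays and 1 of 8 after carbon ions, where Hc did not, beside 2.23% and 3.91% of all genes. Set against the unirradiated metastasis, 4 of 17 rose in the gamma and 3 of 17 in the carbon metastasis, where Hc stayed under 2-fold. Of all genes 1.84% rose in each of these. The summed intensity of the markers was 615400 to 866000 in the unirradiated metastasis, 633800 to 942300 in the gamma metastasis and 687500 to 1071000 in the carbon metastasis. It was 44020 to 53230 in the gamma primary and 63040 to 74290 in the carbon primary, against 61060 to 107200 in the unirradiated primary. Among the brightest, Hopx rose by 2.19, 1.65 and 1.79 and Lamp3 by 2.56, 2.06 and 2.11 in these metastases, and the water channel gene Aqp5 had -0.26, -0.35 and -0.28. Of the 17 genes 8, among them the surfactant gene Sftpc and the secretoglobin Scgb3a1, were above background on none of the arrays of either irradiated primary. The part that lung epithelium in the dissected tissue had in the Hc ratio was not tested. Hepatocyte markers were mostly not measured. Of 14 on the array, 2, 5 and 2 were measured in the unirradiated, gamma and carbon metastases over the unirradiated primary. Alb, Apoa1, Apoa2, Apob, Ttr, Fga and Fgb were above background on no array of the irradiated primaries, the metastases or the unirradiated primary, and none of those measured passed 2-fold in any comparison.

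C3 rose in both irradiated primaries and in all 3 metastases. Its main probe is printed 10 times per array, and the SD between those spots was 0.013 to 0.048. Its log2 intensity was 15.38 and 15.58 in the unirradiated metastasis, 15.15 and 15.36 in the gamma metastasis, and 14.52 and 14.57 in the carbon metastasis. It was 14.70, 14.75, 14.86 and 14.99 in the carbon primary and 14.19, 14.24, 14.26 and 14.34 in the gamma primary, against 13.01 to 13.22, with a median of 13.13, in the unirradiated primary. The order from high to low was unirradiated metastasis, gamma metastasis, carbon primary, carbon metastasis, gamma primary and unirradiated primary, and no neighbours in it overlapped.

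C3 rose by 1.15 ± 0.05 in the gamma primary and by 1.73 ± 0.11 in the carbon primary relative to the unirradiated primary, which are ratios of 2.22-fold and 3.31-fold. Carbon over gamma was 0.56 ± 0.15, below the 2-fold size. Relative to the unirradiated primary it rose by 2.37 ± 0.003 in the unirradiated metastasis, by 2.13 ± 0.04 in the gamma metastasis and by 1.44 ± 0.02 in the carbon metastasis. Among the metastases the ratio to the unirradiated one was -0.23 ± 0.05 after gamma rays and -0.93 ± 0.02 after carbon ions, both under 2-fold and opposite in sign to the ratios in the primaries. The carbon metastasis differed from the gamma metastasis by -0.70 ± 0.03. Against the primary given the same radiation, C3 was 0.98 ± 0.01 in the gamma metastasis and -0.29 ± 0.09 in the carbon metastasis. The second C3 probe, whose signal lay at 6.13 to 6.69, gave ratios of -0.04 to 0.35 in the 6 direct comparisons. It was above background on few arrays of the primaries, but on 3 of 4 of the carbon primary and on 2 of 2 each of the unirradiated and gamma metastases. Over the unirradiated primary it gave 0.276, 0.352 and 0.125 in these 3 RNAs, where the bright probe gave 1.73, 2.37 and 2.13. On this probe the unirradiated primary, the other RNA of these ratios, was above background on 1 of 10 arrays. The ratios of the second probe thus rest on signals near background and cannot check those of the bright probe. The call for C3 rests on the bright probe.

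**Figure D2:**
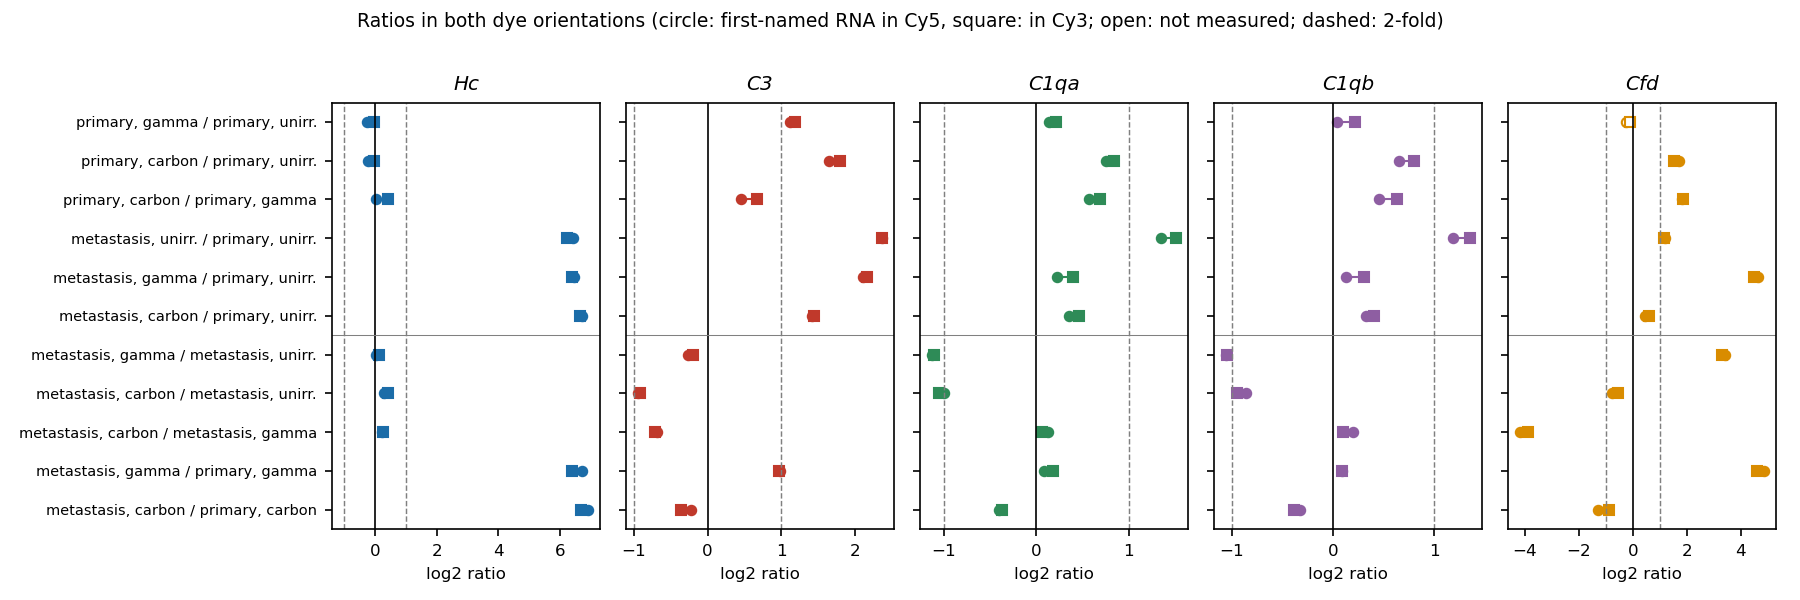
Log2 ratio (horizontal axes, each with its own scale) of each gene in 11 comparisons, with circles for the first-named RNA in Cy5 and squares for it in Cy3, and dashed lines at 2-fold. Both orientations lie close together, and C3, C1qa and C1qb lie above 0 in the carbon over the unirradiated primary but below 0 in the carbon over the unirradiated metastasis.

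C1qa and C1qb, neighbouring genes for chains of 1 protein, had ratios close to each other in each of the 11 comparisons. C1qa had log2 intensities of 13.06 and 13.21 in the unirradiated metastasis, 12.04 and 12.12 in the carbon metastasis and 11.96 and 12.07 in the gamma metastasis. In the primaries C1qa had 12.55 to 12.64 after carbon ions and 11.82 to 11.98 after gamma rays, against 11.66 to 11.80, with a median of 11.69, without irradiation. C1qb had 11.32 and 11.45 in the unirradiated metastasis, 10.40 and 10.48 in the carbon metastasis, 10.26 and 10.42 in the gamma metastasis, 10.82 to 10.94 in the carbon primary and 10.17 to 10.37 in the gamma primary, against 10.07 to 10.20 in the unirradiated primary. For both genes the unirradiated metastasis and, next, the carbon primary stood above the rest without overlap. The carbon metastasis, gamma metastasis and gamma primary were neighbours that overlapped in turn, and for C1qb the gamma primary also overlapped the unirradiated primary.

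Relative to the unirradiated primary, C1qa rose by 1.44 ± 0.11 and C1qb by 1.27 ± 0.12 in the unirradiated metastasis. In the gamma metastasis the ratios were 0.31 ± 0.13 for C1qa and 0.22 ± 0.13 for C1qb, and under median centring in place of loess they were -0.03 and -0.02. In the carbon metastasis they were 0.41 ± 0.08 and 0.37 ± 0.06. Set against the unirradiated metastasis, C1qa fell by 1.12 ± 0.01 and C1qb by 1.05 ± 0.01 in the gamma metastasis. In the carbon metastasis C1qa fell by 1.03 ± 0.03, and C1qb was at -0.91 ± 0.06, just short of 2-fold. Carbon over gamma metastasis was 0.09 ± 0.04 for C1qa and 0.15 ± 0.07 for C1qb. In the primaries the carbon RNA had 0.80 ± 0.06 for C1qa and 0.72 ± 0.10 for C1qb over the unirradiated RNA, while the gamma RNA had 0.18 ± 0.06 and 0.13 ± 0.13, and carbon over gamma was 0.63 ± 0.08 and 0.54 ± 0.13. None of these primary ratios reached 2-fold. C1qc, the gene for the remaining chain, had 1.08 ± 0.04 in the unirradiated metastasis, 0.75 ± 0.06 in the carbon primary and 0.19 ± 0.03 in the gamma primary over the unirradiated primary, and -0.82 ± 0.03 in the gamma over the unirradiated metastasis.

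Macrophage markers moved in part with C1q in the metastases. Of 18 markers measured, 15 rose in the unirradiated metastasis, 9 in the gamma metastasis and 7 in the carbon metastasis over the unirradiated primary, with medians of 1.92, 1.04 and 0.87. Of all measured genes, 10.4%, 8.82% and 8.2% rose there. In the same order C1qa stood at 1.44, 0.31 and 0.41 and C1qb at 1.27, 0.22 and 0.37. Among the brightest, Lyz2 (lysozyme) stood at 4.20, 3.94 and 3.92, Mpeg1 (perforin-2) at 2.82, 2.01 and 2.10, and Tyrobp, a signalling adaptor of myeloid cells, at 2.83, 1.64 and 1.47 in these metastases. Relative to the unirradiated metastasis, 6 of 18 fell in the gamma metastasis and 6 in the carbon metastasis, with medians of -0.88 and -0.94 and none higher. Of all genes 1.4% and 2.36% fell there, and 1.84% rose in each. In the primaries the marker median was 0.03 after gamma rays and 0.06 after carbon ions, where C1qa stood at 0.18 and 0.80. The summed marker intensity was 433000 to 620500 in the unirradiated metastasis, 340800 to 497900 in the gamma metastasis, 316400 to 495600 in the carbon metastasis, 69750 to 72290 in the gamma primary and 66950 to 72250 in the carbon primary, against 39810 to 69930 in the unirradiated primary. Siglec1 was above background on none of the gamma primary's arrays. Neutrophil markers also moved in the metastases, with 11 of 11 higher in the unirradiated metastasis at a median of 3.24, and with 9 of 11 lower and 1 higher in the gamma metastasis and 10 of 11 lower and 1 higher in the carbon metastasis when set against it. In the carbon primary 5 of 8 fell and 1 rose over the unirradiated primary, with a median of -1.39, where C1qa and C1qb stood at 0.80 and 0.72. Of all genes 1.07% fell and 3.91% rose there. The part of these cell types in the C1q ratios was not tested.

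Cfd followed neither site nor irradiation alone. Its log2 intensity was 10.97 and 11.25 in the gamma metastasis, 7.49 and 7.75 in the unirradiated metastasis and 7.02 and 7.13 in the carbon metastasis. In the primaries it was 8.03, 8.26, 8.34 and 8.34 after carbon ions and 6.09, 6.16, 6.41 and 6.51 after gamma rays, against 6.32 to 6.75, with a median of 6.53, without irradiation. The probe was well above background on none of the 4 arrays of the gamma primary and on 6 of the 10 of the unirradiated primary, and these are the RNAs that overlapped. The other 4 RNAs were separated from each other and from both.

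Cfd in the gamma metastasis was 23.5-fold that in the unirradiated primary, a rise of 4.55 ± 0.10, and rose by 3.37 ± 0.08 over the unirradiated metastasis, a 10.3-fold ratio. Where an RNA was above background on none of its arrays, a bound was taken from normalized intensities, with the dim RNA raised to the lowest signal well above background, and no higher than the ratio itself. By it Cfd was at least 25.8-fold higher in the gamma metastasis than in the gamma primary. With scaling between arrays the log2 ratios of the gamma metastasis were 3.84 to the unirradiated primary, 2.73 to the unirradiated metastasis and 4.04 to the gamma primary, so the bound holds for the main setting. It fell by 4.03 ± 0.22 in the carbon relative to the gamma metastasis. In the unirradiated metastasis it rose by 1.19 ± 0.02 over the unirradiated primary. The authors' value table gave 2.58 there. For the gamma metastasis it gave 5.78 over the unirradiated primary and 7.4 over the gamma primary. The sizes of these ratios to dim signals thus depend on the processing. The carbon metastasis stood at 0.53 ± 0.12 against the unirradiated primary, which was not above background on those arrays, and at -0.66 ± 0.15 against the unirradiated metastasis. Agilent's processed ratio gave 1.46 and -1.12 for them, and normexp with offset 0 gave 0.94 and -1.03, so whether they pass 2-fold depends on the processing. In the carbon primary Cfd rose by 1.61 ± 0.14 relative to no irradiation, and it exceeded the level of the gamma primary at least 3.53-fold. In the gamma over the unirradiated primary Cfd did not count as measured. Its ratio there was -0.17 ± 0.09, and -1.63 with Agilent's processed ratio, so its size at this low signal depends on the processing. The carbon metastasis over the carbon primary was -1.27 and -0.90 in the orientations, which missed 2-fold in 1 of them.

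Adipocyte markers moved in part with Cfd. Of 12 measured in the gamma over the unirradiated metastasis, 5 rose and 1 fell, with a median of 0.78, beside 1.84% higher and 1.4% lower of all genes. Of the brightest, Fabp4, a fatty acid carrier, stood at 1.35, Lpl (lipoprotein lipase) at -1.19 and Slc2a4, an insulin-responsive glucose transporter, at 0.20. In the carbon over the gamma metastasis 6 of 12 fell, 0 rose and the median was -0.98, beside 1.07% lower and 0.239% higher of all genes. In the carbon over the gamma primary none of 9 passed 2-fold, with a median of 0.52, and in the carbon over the unirradiated primary 1 of 9 fell and 0 rose, where Cfd rose in both. Of all genes 0.884% rose and 0.16% fell in the former, and 3.91% rose and 1.07% fell in the latter. The intensities of the adipocyte markers were summed as well. Their summed intensity was 16110 to 17200 in the gamma metastasis, 15280 to 17270 in the unirradiated metastasis, 11180 to 12550 in the carbon metastasis, 4845 to 5244 in the carbon primary and 4555 to 4885 in the gamma primary, against 5816 to 6288 in the unirradiated primary. Lep (leptin) was above background on no array of any RNA, and Adipoq (adiponectin) on none of the gamma primary, carbon metastasis or unirradiated primary. The part of fat cells in the Cfd ratios was not tested.

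**Figure D3:**
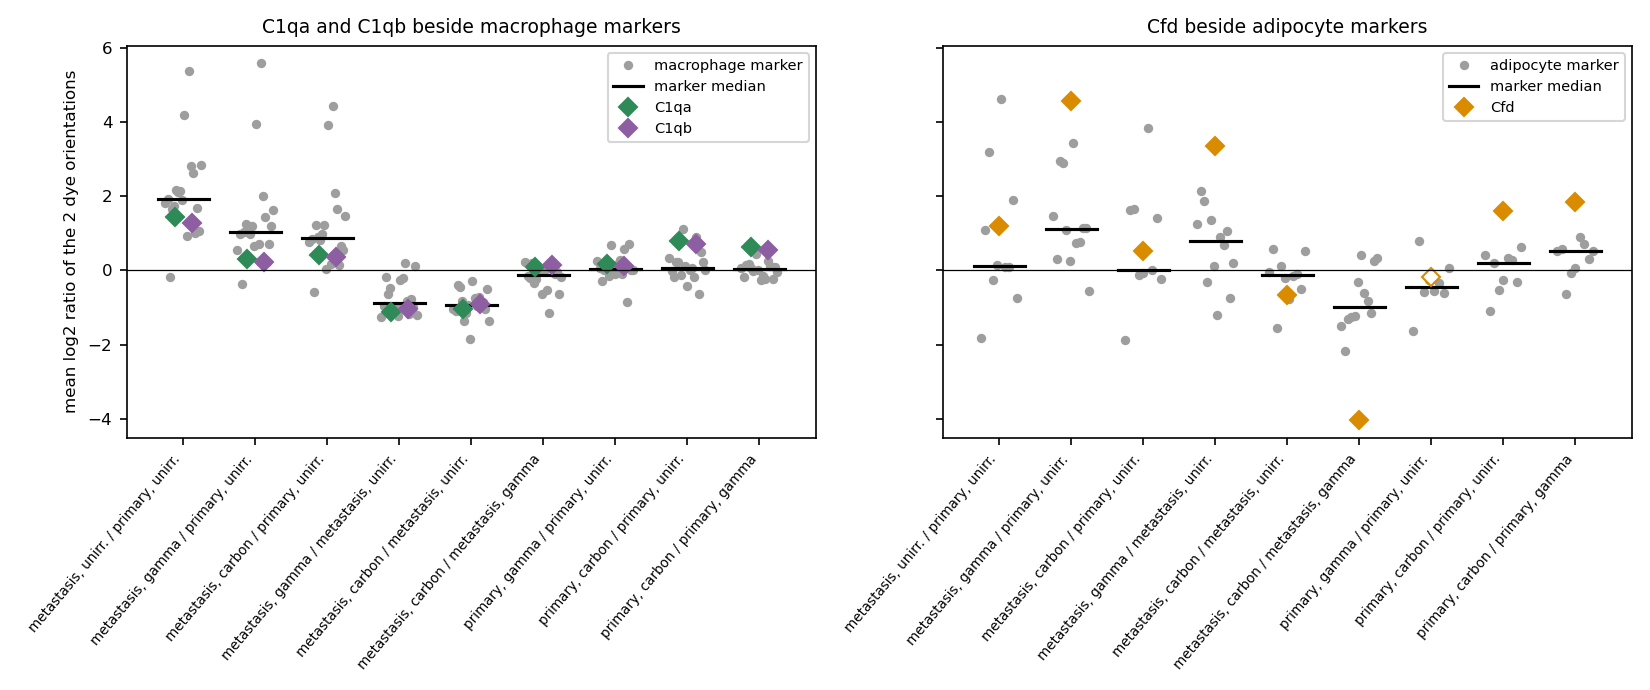
Mean log2 ratio of the 2 dye orientations (vertical axis) for the measured macrophage markers (left) and adipocyte markers (right), in grey with a bar at their median, beside C1qa, C1qb and Cfd as diamonds, open where not measured, in 9 comparisons. C1qa and C1qb lie within the range of the macrophage markers in each comparison of metastases, and Cfd lies above every adipocyte marker in the gamma over the unirradiated metastasis and below every one in the carbon over the gamma metastasis.

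The members were set beside a list of 54 complement genes ordered by role, of which 53 were on the array under these names. In the gamma over the unirradiated primary, 29 of the list were measured, 5 rose and none fell, with a median of 0.17, while 2.23% of all measured genes rose and 1.26% fell. They were the C1 protease genes C1s1 at 2.16 ± 0.08 and C1ra at 1.33 ± 0.30, the C1 inhibitor Serping1 at 1.76 ± 0.14, factor B (Cfb) at 1.49 ± 0.16, and C3. In the carbon over the unirradiated primary, 33 were measured, 7 rose and none fell, with a median of 0.45, beside 3.91% higher and 1.07% lower of all genes. C1s1 again led, at 3.001 ± 0.137, with Serping1 at 2.77 ± 0.12, Cfb at 1.98 ± 0.22 and C1ra at 1.97 ± 0.25, joined by the C3 convertase component C2 at 2.19 ± 0.20 and by Cfd. In the carbon over the gamma primary, 3 of 30 rose, namely Cfd, C2 at 1.20 ± 0.05 and Serping1 at 1.10 ± 0.05, and none fell, with a median of 0.28, beside 0.884% higher and 0.16% lower of all genes. A set of 18 interferon-response genes moved in the same RNAs, with 18 of 18 higher in the gamma primary at a median of 2.81 and 18 of 18 higher in the carbon primary at a median of 4.36, and 15 of 18 higher in carbon over gamma. Their part in the complement ratios was not tested.

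In the metastases Hc had the highest ratio of the list. In the unirradiated metastasis over the unirradiated primary, 36 were measured, 21 rose and none fell, with a median of 1.35, beside 10.4% higher and 1.69% lower of all genes. In the gamma metastasis 18 of 37 rose, with a median of 1.18, beside 8.82% higher and 1.1% lower of all genes. In the carbon metastasis 16 of 34 rose, with a median of 0.74, beside 8.2% higher and 1.03% lower of all genes. None of the list fell in either. Without the 5 members, 16 of 31, 15 of 32 and 14 of 29 rose in these comparisons.

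Among the components, Cfb rose by 3.42 ± 0.29 in the unirradiated metastasis, 2.90 ± 0.22 in the gamma metastasis and 2.48 ± 0.16 in the carbon metastasis. C2 rose by 2.73 ± 0.09, 1.83 ± 0.07 and 1.35 ± 0.18 in the same order, and C1s1 by 1.78 ± 0.005, 1.51 ± 0.06 and 1.10 ± 0.09. Properdin (Cfp), which stabilises the alternative pathway convertase, rose by 1.67 ± 0.20, 1.61 ± 0.15 and 1.34 ± 0.29, and had 0.05 and -0.14 in the gamma and carbon primaries. C6, a membrane attack component that was measured in none of the comparisons among primaries, rose by 2.29 ± 0.11, 2.20 ± 0.14 and 2.53 ± 0.09. Of 7 terminal component genes, Hc and C6 were the ones measured in the metastases.

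The regulator Serping1 rose by 2.02 ± 0.10, 1.43 ± 0.14 and 1.67 ± 0.12 in the unirradiated, gamma and carbon metastases. Cfhr2 rose by 3.17 ± 0.14, 2.10 ± 0.25 and 2.12 ± 0.38, the membrane regulator Cd55 by 1.60 ± 0.31, 1.56 ± 0.38 and 1.89 ± 0.24, and clusterin (Clu), which binds the forming attack complex, by 2.03 ± 0.23, 2.92 ± 0.24 and 3.11 ± 0.29. Near-identical relatives such as C1ra and C1rb may share signal between probes, which was not checked, as probe sequences were not used here. Among the receptors, the integrin subunits Itgb2 and Itgax rose by 2.66 ± 0.23 and 2.08 ± 0.08 in the unirradiated metastasis, by 2.04 ± 0.18 and 1.61 ± 0.14 in the gamma metastasis, and by 1.88 ± 0.25 and 1.85 ± 0.14 in the carbon metastasis. Itgam, a subunit of a C3 fragment receptor, rose by 1.90 ± 0.08 in the unirradiated metastasis. Cd93, once described as a C1q receptor, rose by 2.23 ± 0.13, 1.70 ± 0.14 and 1.87 ± 0.13.

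**Figure D4:**
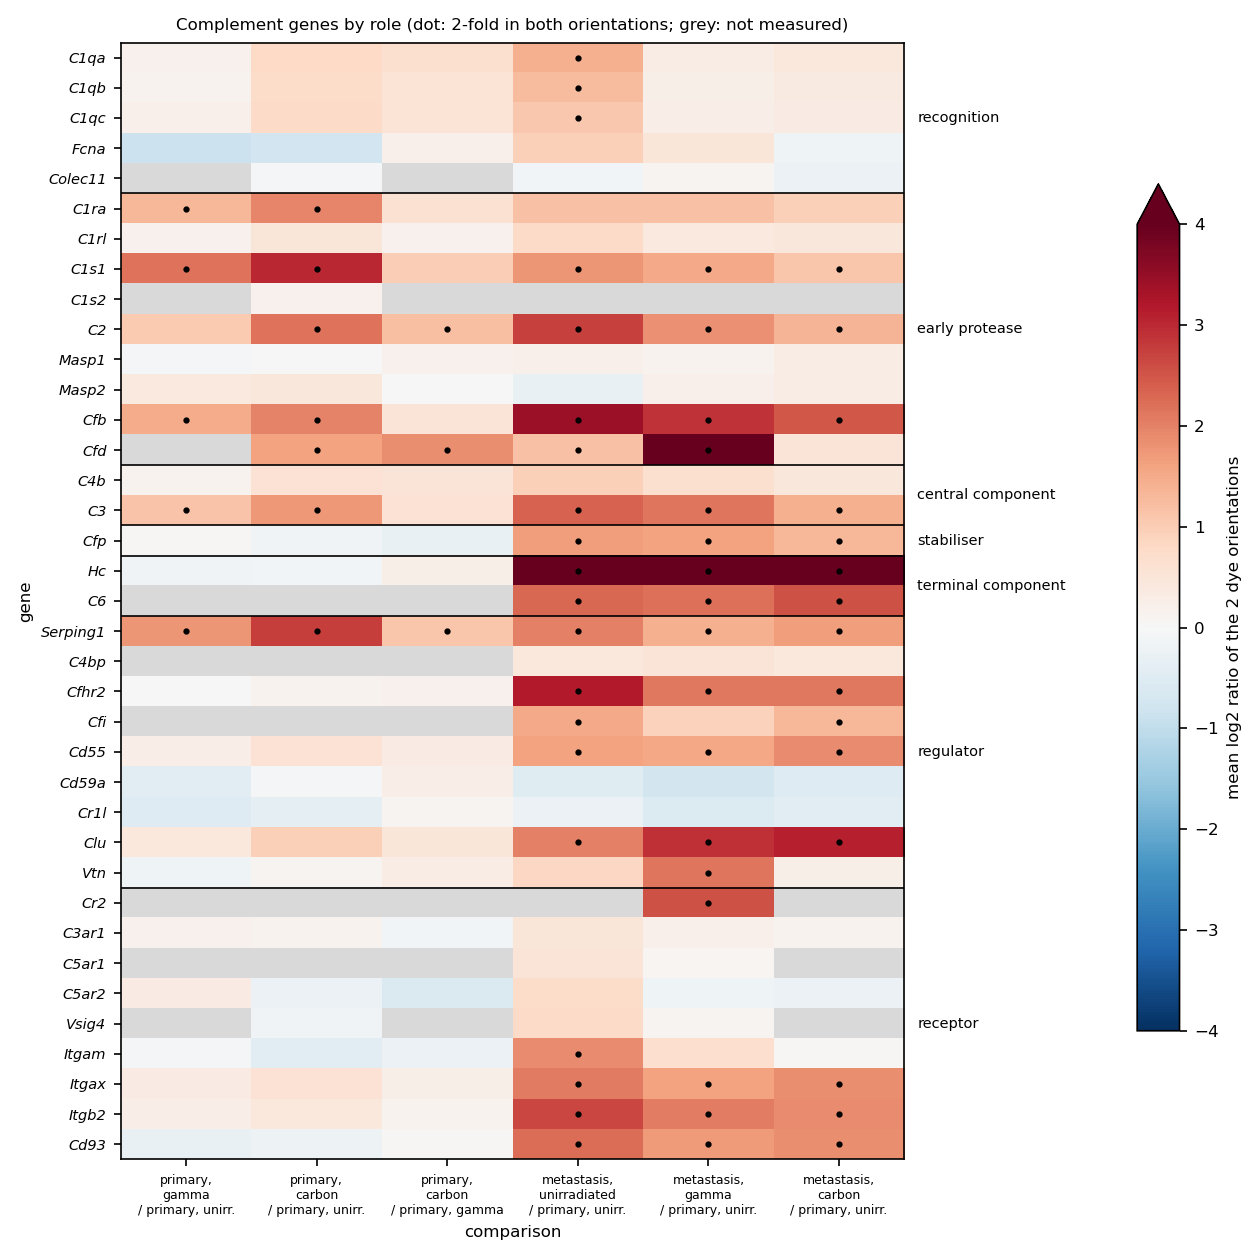
Mean log2 ratio (colour, cut off at 4) of the complement genes reported here and measured in at least 1 of 6 direct comparisons, in rows grouped by role, with dots where the ratio was 2-fold in both orientations and grey where the gene was not measured. In the irradiated primaries the dots fall on C1ra, C1s1, C2, Cfb, Cfd, C3 and Serping1. In the metastases C1ra has no dot and Cfd has none in the carbon metastasis. Dots there also cover Hc, C6, Cfhr2, Clu and some receptor genes, among them Itgb2, Itgax and Cd93.

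Between the metastases fewer complement genes changed. In the gamma over the unirradiated metastasis 3 of 37 rose, Cfd, the complement receptor gene Cr2 at 2.46 ± 0.29 and vitronectin (Vtn) at 1.32 ± 0.03, and 3 fell, the integrin subunit Itgam at -1.23 ± 0.04, C1qa and C1qb. The list median was -0.31, beside 1.84% higher and 1.4% lower of all genes. Cr2's other probe gave 0.13 there, so its rise rests on 1 probe. In the carbon over the unirradiated metastasis 1 of 36 rose, Clu at 1.08 ± 0.06, and 4 fell, Itgam at -1.85 ± 0.13, C2 at -1.38 ± 0.08, ficolin A (Fcna), a lectin pathway recognition protein, at -1.15 ± 0.02, and C1qa, with a median of -0.43, beside 1.84% higher and 2.36% lower of all genes. In the carbon over the gamma metastasis none of 37 rose and 3 fell, Cfd, Cr2, which was at least 5.49-fold lower, and Vtn at -1.92 ± 0.09, with a median of -0.07, beside 0.239% higher and 1.07% lower of all genes. These 3 comparisons share the arrays of the metastases and the unirradiated primary with those above.

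Against the primary given the same radiation, 16 of 37 rose in the gamma metastasis and none fell, with a median of 0.75, beside 7.77% higher and 0.902% lower of all genes. Clu stood at 2.51 ± 0.08 and Cfb at 1.41 ± 0.06 there. In the carbon metastasis over the carbon primary 11 of 35 rose and 2 fell, with a median of 0.003, beside 6.84% higher and 1.92% lower of all genes. C1s1 fell by 1.90 ± 0.04 and Serping1 fell by 1.10 ± 0.001, and C3 at -0.29 and C1qa at -0.39 were under 2-fold.

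Other marker lists gave further values for the same RNAs. Of all measured genes, 10.4%, 8.82% and 8.2% rose and 1.69%, 1.1% and 1.03% fell in the unirradiated, gamma and carbon metastases over the unirradiated primary. Endothelial markers rose in 11 of 12 in the unirradiated metastasis and in 7 of 12 each in the gamma and carbon metastases. Fibroblast markers rose in 6 of 13 in the unirradiated metastasis, with 4 higher and 1 lower in the gamma metastasis and 2 higher and 1 lower in the carbon metastasis. Skeletal muscle markers fell in 12 of 12 in each metastasis and in the gamma primary, and in 5 of 12 in the carbon primary, with a median of -2.36 in the gamma primary. In the gamma and carbon primaries 1.26% and 1.07% of all genes fell. In the metastases the interferon-response genes were higher in 18 of 18, with medians of 3.55, 2.74 and 2.90 in the unirradiated, gamma and carbon metastases.

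The genes most like each member were sought among 13177 named genes measured in the metastases, by the root mean square difference of their log2 ratios over the 12 arrays. Hc was closest to Sec14l3, with a difference of 0.20, then to S100g at 0.68, Scgb1a1 at 0.81 and Sftpd at 0.82. Sec14l3 had 6.34, 6.21 and 6.46 in the unirradiated, gamma and carbon metastases, and -0.01 and -0.12 in the gamma and carbon primaries. C3 was closest to Gzma at 0.21, Ifi202b at 0.27, Ly75 at 0.28 and Zfp975 at 0.33. C1qa and C1qb were closest to each other at 0.10, and next to C1qc, at 0.17 from C1qa and 0.11 from C1qb, and to Klrc3, at 0.22 and 0.21. Cfd had no near counterpart, since the closest, Lck, lay 0.98 away, followed by Cxcl13 at 1.02, Enpp2 at 1.08 and Tnfrsf13c at 1.13. Like Cfd, Cxcl13 stood highest in the gamma metastasis, at 4.08, against 0.75 in the unirradiated and 0.36 in the carbon metastasis, but it had 0.01 in the carbon primary, where Cfd rose by 1.61.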

How the data were processed

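The 12 two-colour arrays compared 6 RNAs in 6 dye swaps. The scanner output names array design 014868, Agilent Feature Extraction 9.1.3.1 and the protocol GE2-v5_91_0806, per the file headers. As intensity, the authors deposited each spot's mean signal and median local background per channel, with no normalization. The deposited log10 ratios, per the file headers, are Cy5 over Cy3 of background-corrected and dye-normalized signals, and the authors' value table equalled them within 0.005, with a median of 0 on each array. Which dye held which RNA was taken from the labels.

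Intensities were corrected by normexp (offset 50, which pulls dim ratios toward 0) and loess with control spots at weight 0 with limma 3.58.1 (R 4.3.3, with the data.table package, version 1.17.8), and the steps were tested on simulated data. Spots flagged as non-uniform or outliers, 16 to 58 per array of the 43379 that are not controls, were left out, and spots of a probe were averaged. Levels were taken per channel after loess and Aquantile. Later steps used Python 3.11.15, numpy 2.4.6 and pandas 2.3.3. Probes were named through a RefSeq table of GRCm38.p6, by accession for 22951, by symbol for 6659 and by older symbol for 3109, and 8455 kept the file's name. The brightest probe stood for each of the 8914 genes with several. The 3 slides held 4 arrays each: the unirradiated and gamma metastases, the carbon metastasis and gamma primary, and the carbon primary with carbon against gamma. The gamma over the unirradiated metastasis lies within 1 slide, whereas the other comparisons through the unirradiated primary span slides, where slide and RNA cannot be told apart. The number of arrays limits the precision.

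The members and all gene lists were chosen with earlier results of these data known. Named genes are the members, up to 12 other complement genes past 2-fold per comparison from the largest down (given in the other comparisons too), up to 3 of the brightest markers per list beside those not above background, and the 4 genes most like each member. Of the complement list, 1 gene is counted but not reported here by name.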

Additional observations from a re-analysis of the deposited data

Results flagged for a closer look

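In 9 cases radiation went with opposite signs of a ratio at the 2 sites, in both dye orientations. They are cases in which the member was measured at both sites, of whatever size, so Cfd after gamma rays is not among them. None of these differences was tested, because each condition had 1 RNA, and the metastases were compared through the unirradiated primary. After gamma rays the ratio to the unirradiated RNA of the same site was -0.233 in the metastasis and 1.153 in the primary for C3, -1.123 and 0.179 for C1qa, -1.052 and 0.128 for C1qb, and 0.097 and -0.131 for Hc. After carbon ions it was -0.93 in the metastasis and 1.726 in the primary for C3, -1.028 and 0.798 for C1qa, -0.905 and 0.723 for C1qb, -0.66 and 1.612 for Cfd, and 0.354 and -0.115 for Hc. Both Hc ratios in the metastases changed sign with scaling between arrays.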

How the results depend on the processing

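Of 22 member ratios past 2-fold, 22 kept their sign under each of 8 alternatives and 19 also stayed at 1 or more in size. The exceptions were C3 at 0.65 in the gamma primary and 0.70 in the carbon metastasis when its probes were averaged, and C1qa in the carbon over the unirradiated metastasis. There C1qa stayed past 2-fold under 6 of 8 alternatives and was smallest, at -0.99, with scaling between arrays. Cfd in the carbon over the gamma primary ranged from 1.83 to 4.83, the highest with Agilent's processed ratio. Median centring moved the median of all genes by up to -0.19, in the carbon metastasis over the carbon primary, and Agilent's processed ratio by up to -0.15, in the unirradiated metastasis. Counts of complement genes moved by over 1.5 times as follows, and the causes were not tested. Shares of all genes are given for the main setting only. The counts below therefore show how far the complement counts depend on the setting, and not whether complement genes differ from all genes under it. With normexp at offset 0, 1 fell in the gamma primary, 1 in the carbon primary, 7 in the carbon over the unirradiated metastasis and 4 in the carbon metastasis over the carbon primary. With Agilent's processed ratio these were 1, 1, 8 and 4, and 7 fell in the gamma over the unirradiated metastasis. With the authors' table they were 1, 1 and 8 in the first 3, and 7 in the gamma over the unirradiated metastasis. With median centring, 2 rose in the gamma primary, 1 in the carbon over the gamma primary, 10 in the carbon metastasis and 0 in the carbon over the unirradiated metastasis. With scaling, 0 rose in the carbon over the unirradiated metastasis, and 1 fell in the gamma and 5 in the carbon metastasis over the primary given the same radiation. With Cy3 alone, 7 fell in the carbon over the unirradiated metastasis. With both RNAs above background, 10 rose in the gamma metastasis over the gamma primary. At 1.5-fold, 11 rose and 1 fell in the carbon primary, 1 fell in each of the gamma primary, the gamma metastasis, and the gamma metastasis over the gamma primary, 9 fell in the gamma and 14 in the carbon over the unirradiated metastasis, 5 in the carbon over the gamma metastasis, and 5 in the carbon metastasis over the carbon primary. Of 1100 marker counts under alternatives, 978 stayed within 1.5 times and 122 did not. No paired analysis was possible because every label gives replicate 1.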
